A study of Mus musculus with 17 samples.

Results

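Crypts of the mouse small intestine after hepatectomy were compared with crypts after sham surgery. Both groups were chosen by their labels alone, which give 2 crypt libraries after hepatectomy and 2 after sham surgery, 4 of the 17 libraries of the series. All came from mice labelled WT, and the labels give no time after surgery, no age, no sex and no extent of the liver resection. The other intestinal libraries, used for the spread between replicates and as a second epithelial fraction, are labelled IEC, again 2 after hepatectomy and 2 after sham surgery. The series title asks how the liver and the gut together set the fitness of intestinal stem cells, and hepatectomy, the surgical removal of liver tissue, is the perturbation in these libraries. Whether the 2 libraries of a group came from different mice is not in the labels, so each p-value covers the spread of these libraries alone, and that spread may be technical.

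Crypts are pits in the intestinal lining. Stem cells and Paneth cells sit at their base, dividing daughter cells fill their walls, and the daughters mature into absorptive enterocytes or secretory cells as they move up onto the villi, where fat, sugar, peptides and minerals are taken up. Immature crypt cells are known for high ribosome, nucleotide and sterol synthesis, while villus enterocytes burn fatty acids, detoxify foreign compounds and package dietary fat into chylomicrons, lipoprotein particles that leave through the lymph. A crypt preparation can also carry villus cells, lymphocytes and stroma.

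Total counts were 34089736 and 43580050 in hepatectomy crypts and 26609786 and 37770895 in sham crypts. Levels are given as CPM, library counts scaled to 1000000 with TMM factors, first for a library pair and then as a log2 fold change ± SE of hepatectomy over sham from edgeR's quasi-likelihood test, with a Benjamini-Hochberg adjusted p. The SE was derived as the absolute log2 fold change divided by the square root of the F value of that test. It is therefore no measure of spread separate from the p-value. Genes detected numbered 29790 and 29957 in hepatectomy crypts, against 24425 and 25236 in sham crypts. The predicted gene Gm10800 took 3.99% and 3.44% of counts in hepatectomy crypts, against 0.102% and 0.0717% in sham crypts. Olfactory receptor genes are hardly used by gut epithelium. Summed counts of 1117 of them, per 1000000 total counts without TMM factors, were 158 and 164 in hepatectomy crypts. In sham crypts these sums were 69.2 and 62.5. The running numbers in the column headers put the hepatectomy libraries and the sham libraries into separate number series, so an effect of hepatectomy and a difference between those number series cannot be told apart. The sources used here do not state whether counting used the strand, so genes that overlap another annotated gene have uncertain counts. Of 140 named genes checked for this, 70 overlap another gene, among them Abcb1a, Por, Slc30a1, Mt2, Zg16, C3 and Hnrnpu.

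The crypt label was checked against markers in the sham libraries. Of 16 genes that mark villus tip enterocytes, 13 were called lower in sham crypts than in sham IEC, beside 19.3% of all genes tested that were lower and 19.3% that were higher, with a median log2 difference of -1.76. Of 13 genes of mid villus enterocytes, 12 were lower, with a median of -1.71. Of 18 crypt base stem cell genes, 7 were higher and 7 were lower in sham crypts, with a median of -0.20. For 16 Paneth cell genes the median was -1.26, with 11 lower and 0 higher. The sham crypts were thus poorer in villus and Paneth cell genes than sham IEC. Their stem cell list was not higher by its median or its calls. Its sum was higher, with 2437 and 2464 CPM in sham crypts against 2133 and 2133 CPM in sham IEC.

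In crypts, 6819 of 18207 tested genes (37.5%) passed an adjusted p under 0.05 between hepatectomy and sham. Of these, 3493 rose (19.2%) and 3326 fell (18.3%), and 1040 rose (5.71%) and 555 fell (3.05%) at least 2-fold. The median log2 fold change over all genes was 0.01. These shares are the background against which the count of each gene list is read.

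Since sham crypts and sham IEC differed in villus gene levels, each gene was also placed against both. A gene is called outside both sham fractions when both hepatectomy crypt libraries lay above, or both below, all 4 sham libraries and the gene passed the test in that direction against sham crypts and against sham IEC. No blend of the 2 sham profiles has such a level. Above both sham fractions were 1289 genes (7.08% of those tested, 36.9% of the crypt rises), and below both were 1234 (6.78%, 37.1% of the crypt falls). The remaining rises and falls did not meet these conditions.

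**Figure D1:**
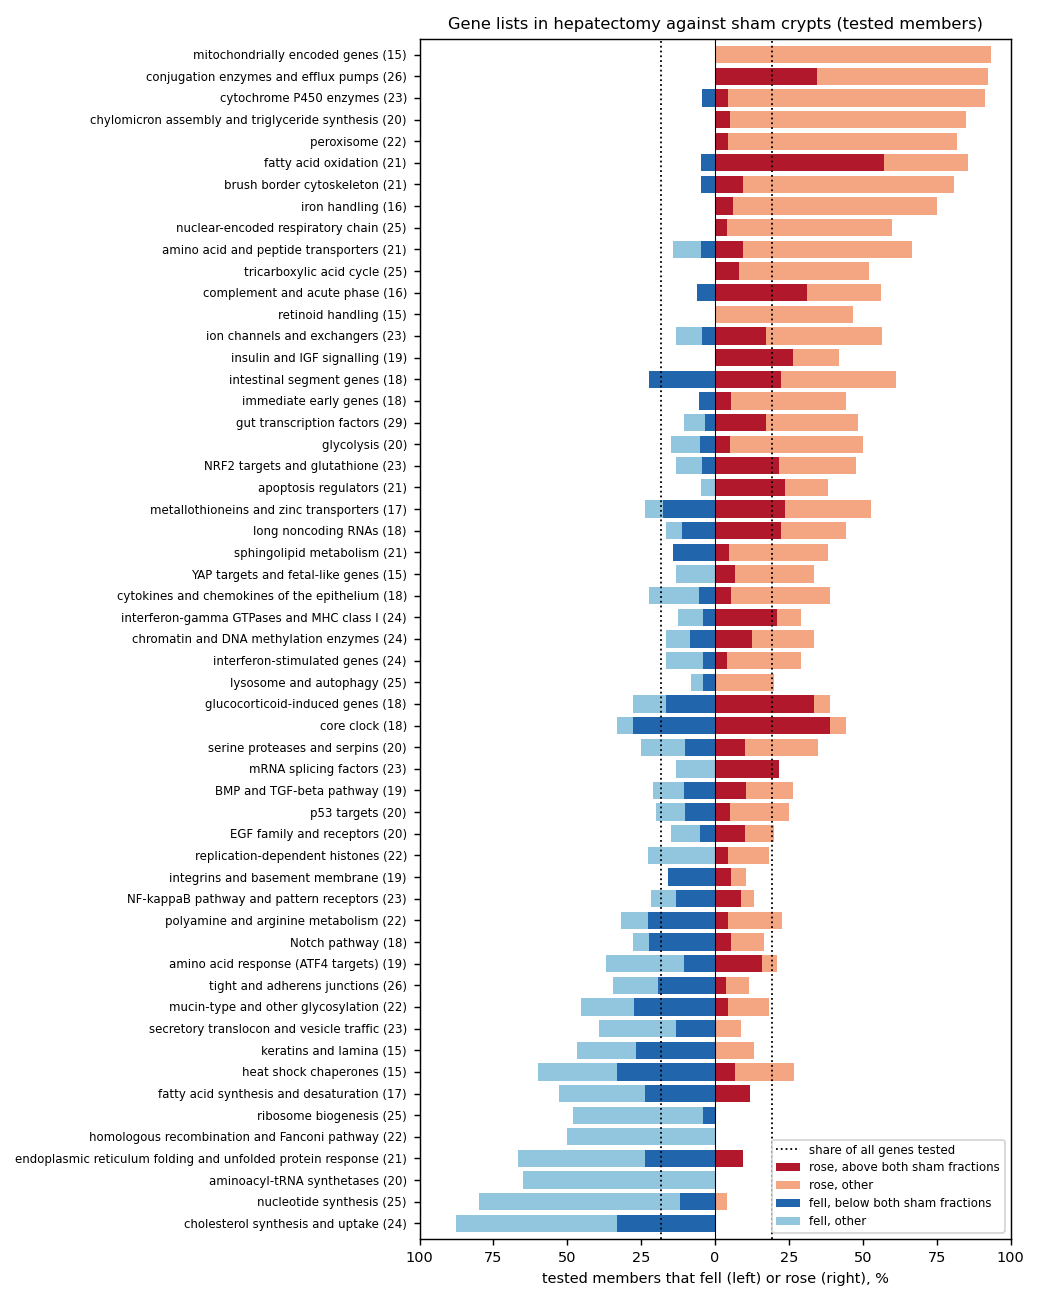
Share of tested members of each of 55 function lists with at least 15 tested members (in brackets) that rose (right, red) or fell (left, blue) in hepatectomy against sham crypts, in percent, with the dark part of each bar for members outside both sham fractions. Dotted lines mark the shares over all genes tested, 19.2% for rises and 18.3% for falls; detoxification, chylomicron, mitochondrial and peroxisome lists stand at the top, and cholesterol and nucleotide synthesis at the bottom.

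Markers of cell types moved along with the operation. The 16 villus tip genes summed to 4819 and 4989 CPM in hepatectomy crypts, against 2539 and 2475 CPM in sham crypts, with 50191 and 47200 CPM in hepatectomy IEC and 18593 and 18181 CPM in sham IEC. In all, 9 members rose and 1 fell in crypts (median log2 fold change 0.35). The 13 mid villus genes summed to 2780 and 2694 CPM in hepatectomy crypts, against 1506 and 1484 CPM in sham crypts, with 12 rises and 1 fall (median 0.58). The 13 villus bottom genes summed to 14671 and 14524 CPM in hepatectomy crypts, against 9830 and 9662 CPM in sham crypts, with 10 rises and 3 falls (median 0.50). Sums of all 3 villus lists were thus higher in hepatectomy than in sham crypts. For tip and mid villus genes they stayed far below sham IEC, whereas for villus bottom genes they were slightly above the 14493 and 14244 CPM of sham IEC.

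Crypt base stem cell genes summed to 1605 and 1629 CPM in hepatectomy crypts, against 2437 and 2464 CPM in sham crypts, and 7 of 18 fell and 0 rose (median -0.06). The sum thus fell more than the typical member, and 0 members fell at least 2-fold. In IEC, 12 of the 18 fell and 1 rose (median -0.39). The lower sum in hepatectomy crypts accompanies the falls in nucleotide, ribosome and sterol synthesis genes given further on, and its part in them was not tested.

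Markers of lymphocytes and most mast cell genes went the other way. Genes of B and plasma cells summed to 24.2 and 27.6 CPM in hepatectomy crypts, against 111 and 106 CPM in sham crypts, and 9 of 12 tested members fell and 0 rose. T and NK cell genes summed to 42.5 and 45.3 CPM, against 117 and 124 CPM in sham crypts, and 16 of 17 fell. Mast cell genes summed to 8.14 and 7.94 CPM, against 37.8 and 42.9 CPM in sham crypts, with Mcpt1, a mast cell protease, at 0.764 and 0.326 CPM in hepatectomy crypts and 14.6 and 17.7 CPM in sham crypts; 6 of 7 tested members fell and Hdc rose, a call lost with DESeq2 (adjusted p = 0.096). Each of these 3 sums was lower in both hepatectomy libraries than in either sham library. Macrophage and dendritic cell genes summed to 26.9 and 26.2 CPM in hepatectomy crypts, against 37.8 and 39.3 CPM in sham crypts, with 4 falls, 0 rises and 5 not called among 9. The neutrophil list had 2 tested genes, neither called, with 2.32 and 3.28 CPM in hepatectomy crypts against 2.06 and 2.02 CPM in sham crypts. In bulk RNA, fewer cells of a type and less RNA per cell cannot be told apart.

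Red blood cell genes summed to 14.8 and 17.8 CPM in hepatectomy crypts, against 39.7 and 39.3 CPM in sham crypts, and 4 of 5 tested genes fell. Fibroblast genes were level in sum, with 55.9 and 55.2 CPM in hepatectomy crypts against 53 and 52.4 CPM in sham crypts, although 4 of 9 tested genes rose and 2 fell. Fn1 and Fbln1 were the falls, and Col1a1, Vim and Thy1 were not called; the calls of Fn1, Fbln1 and Pdpn were lost with DESeq2 (adjusted p = 0.13, 0.12 and 0.08 in that order). Dcn, a stromal proteoglycan, stood at 3.91 and 4.89 CPM in hepatectomy crypts, against 0.353 and 0.308 CPM in sham crypts, and Col3a1, a fibrillar collagen, at 1.12 and 1.21 CPM against 0.118 and 0.242 CPM. Among secretory cells, 15 of 16 goblet cell genes fell (median -1.16) and 15 of 16 Paneth cell genes fell (median -1.03). In the gene groups that follow, the part these shifts in cell type markers play was not tested.

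Genes that burn fatty acids rose together and mostly past both sham fractions. Of 21 tested genes of mitochondrial fatty acid oxidation, 18 rose, 1 fell and 2 were not called, with a median log2 fold change of 0.41, and 12 lay above both sham fractions.

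Acadl, the long-chain acyl-CoA dehydrogenase, stood at 136 and 136 CPM in hepatectomy crypts, against 63.1 and 62.9 CPM in sham crypts and 78.6 and 76.8 CPM in sham IEC (1.11 ± 0.046, adjusted p = 5.6e-09). Acot1, an acyl-CoA thioesterase, stood at 18.2 and 17 CPM against 7.35 and 6.9 CPM in sham crypts (1.31 ± 0.09, adjusted p = 4.5e-07). Slc25a20, which carries acylcarnitines into mitochondria, stood at 76.3 and 81.8 CPM against 46.7 and 43.6 CPM (0.81 ± 0.06, adjusted p = 8e-07). For all 3 genes the hepatectomy crypts did not overlap either sham fraction. Etfb, a subunit of the electron carrier that collects electrons from these dehydrogenases, followed with 244 and 255 CPM against 176 and 172 CPM in sham crypts (0.52 ± 0.048, adjusted p = 5.1e-06).

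Acsl1, an enzyme that activates fatty acids with coenzyme A, was the 1 member that fell, to 27.6 and 27.8 CPM in hepatectomy crypts, against 34.3 and 33.7 CPM in sham crypts (-0.29 ± 0.063, adjusted p = 0.003). In IEC it rose (0.45, adjusted p = 8.7e-05), and the 2 effects differed by -0.74 ± 0.087 (adjusted p = 0.00013). Cpt1a, the gatekeeper of fatty acid entry into mitochondria, was not called. Ppara, the nuclear receptor known to switch on this pathway, stood at 28.6 and 28.7 CPM in hepatectomy crypts, against 20.5 and 19.2 CPM in sham crypts (0.53 ± 0.074, adjusted p = 0.00017), above both sham fractions. Pdk4, a kinase that shuts pyruvate out of the mitochondrion, was low but higher after hepatectomy, with 2.35 and 3.07 CPM against 0.941 and 0.637 CPM in sham crypts (1.83 ± 0.24, adjusted p = 0.00012).

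**Figure D2:**
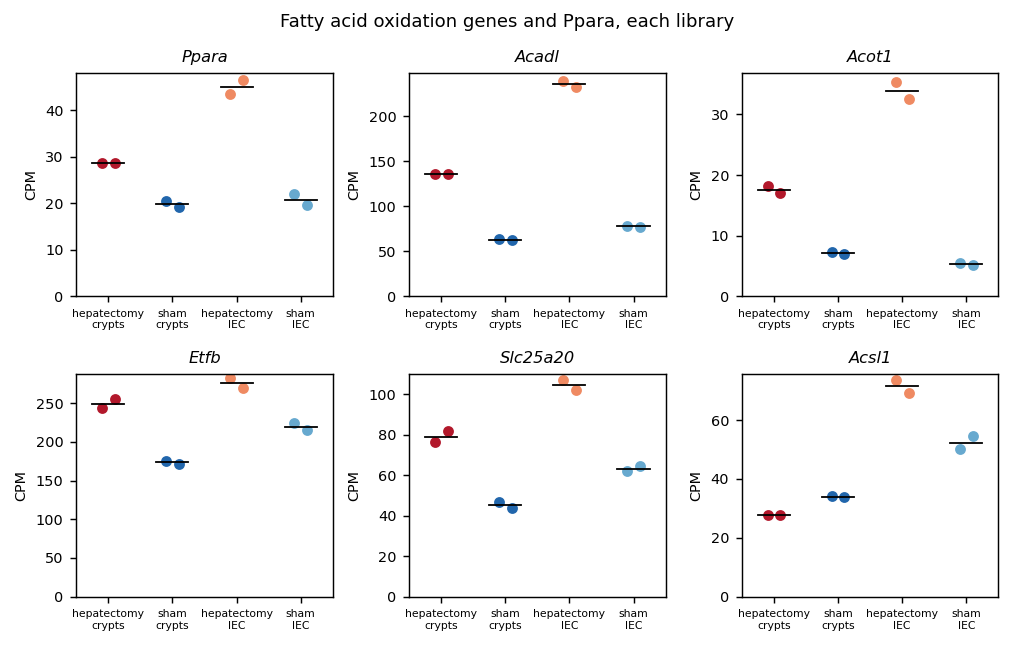
CPM of Ppara and 5 genes of fatty acid oxidation in each library (points) with the group mean (line), for hepatectomy crypts, sham crypts, hepatectomy IEC and sham IEC. Ppara, Acadl, Acot1, Etfb and Slc25a20 lie above both sham groups in hepatectomy crypts, while Acsl1 lies below them.

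Peroxisome genes, which shorten very long fatty acids, rose in 18 of 22 cases with 0 falls (median 0.39), but only 1 of them, Pex11a, lay above both sham fractions. Pex11a, which makes peroxisomes divide, stood at 38.3 and 35.7 CPM in hepatectomy crypts, against 23.4 and 23.4 CPM in sham crypts and 24.6 and 22.9 CPM in sham IEC (0.66 ± 0.075, adjusted p = 3.4e-05). In sham libraries the peroxisome list was lower in crypts than in IEC (median log2 difference -0.51).

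Transcripts of the mitochondrial genome differed in response between crypts and IEC. Of 15 genes encoded by the mitochondrial genome, 14 rose in crypts with a median of 1.24, whereas in IEC 1 rose and 5 fell (median -0.12, with 19.5% and 18.3% of all genes tested), and for all 15 the effect in crypts exceeded the effect in IEC, against 9.15% of all genes tested. mt-Nd5, a subunit of respiratory complex I, stood at 2846 and 2297 CPM in hepatectomy crypts, against 792 and 847 CPM in sham crypts, and at 1964 and 2316 CPM in hepatectomy IEC against 2513 and 2542 CPM in sham IEC (difference of effects 1.89 ± 0.13, adjusted p = 1.4e-06). In the deposited counts, mitochondrial genes took 8.26% and 7.3% of hepatectomy crypt libraries and 4% and 4.41% of sham crypt libraries, against 7.86% and 8.77% in hepatectomy IEC and 10.1% and 10.1% in sham IEC. Sham crypts were thus the low group, and none of the 15 lay outside both sham fractions. Of 25 nuclear genes of the respiratory chain, 15 rose and 0 fell, with a much smaller median of 0.17.

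Detoxification genes rose in nearly every case. Of 23 tested cytochrome P450 genes, which oxidise drugs, steroids and fatty acids, 21 rose and 1 fell (median 1.02), and 12 rose at least 2-fold. Cyp2b10, a P450 induced by the xenobiotic receptor CAR, stood at 56.9 and 54.9 CPM in hepatectomy crypts, against 12.9 and 14.9 CPM in sham crypts (2.0 ± 0.072, adjusted p = 1.6e-09), and at 647 and 591 CPM in hepatectomy IEC against 152 and 155 CPM in sham IEC. Hepatectomy crypts lay above sham crypts without overlap but below sham IEC, and 20 of the 21 members that rose did not pass as above both sham fractions. The list was lower in sham crypts than in sham IEC (median log2 difference -1.68). Por, the reductase that supplies P450 enzymes with electrons, was the 1 exception, with 135 and 136 CPM in hepatectomy crypts, 78.8 and 75.4 CPM in sham crypts and 116 and 108 CPM in sham IEC (0.81 ± 0.05, adjusted p = 1.7e-07).

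Cyp1a1, the P450 known as the readout of the aryl hydrocarbon receptor, fell. Its level was 1.03 and 0.676 CPM in hepatectomy crypts, against 2.23 and 1.82 CPM in sham crypts (-1.26 ± 0.21, adjusted p = 0.00057), and 13.7 and 12.7 CPM in hepatectomy IEC, against 23.9 and 23 CPM in sham IEC (-0.83, adjusted p = 8.7e-05). Both fractions were lower after hepatectomy, with no overlap. Nr1i3, which encodes CAR itself, stood at 41.7 and 37.5 CPM in hepatectomy crypts, against 18.9 and 17.2 CPM in sham crypts (1.14 ± 0.073, adjusted p = 2.6e-07).

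Conjugating enzymes and efflux pumps, which tag foreign compounds and export them, rose in 24 of 26 cases with 0 falls (median 0.65), and 9 lay above both sham fractions. Abcb1a, the P-glycoprotein efflux pump, stood at 77.3 and 79 CPM in hepatectomy crypts, against 36.5 and 38 CPM in sham crypts and 49.4 and 49.3 CPM in sham IEC (1.07 ± 0.054, adjusted p = 2.8e-08). Ugt1a1, which couples glucuronic acid to bilirubin and drugs, stood at 396 and 402 CPM against 226 and 228 CPM in sham crypts (0.81 ± 0.041, adjusted p = 2.4e-08); it shares exons with neighbouring Ugt1a genes, so its counts are uncertain. Gstm3, a glutathione transferase, stood at 183 and 180 CPM against 69.2 and 70.3 CPM in sham crypts and 166 and 166 CPM in sham IEC (1.38 ± 0.047, adjusted p = 1e-09). These 3 genes were above all 4 sham libraries.

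Among single genes picked for the size of their change, 3 take part in sulfate transfer, for which no list was tested. Sult6b2, a sulfotransferase by its family name, stood at 67.9 and 69 CPM in hepatectomy crypts, against 14.3 and 13.5 CPM in sham crypts and 33.1 and 31.6 CPM in sham IEC (2.30 ± 0.063, adjusted p = 2.5e-10). Papss2, which makes the active sulfate donor, stood at 414 and 399 CPM against 110 and 112 CPM in sham crypts (1.87 ± 0.045, adjusted p = 1.4e-10). Gal3st2, which sulfates galactose on glycans, stood at 114 and 115 CPM against 36 and 35.3 CPM (1.68 ± 0.048, adjusted p = 2.7e-10). Sham IEC had 488 and 491 CPM of Papss2, above hepatectomy crypts, and 111 and 112 CPM of Gal3st2, close to them, while Sult6b2 lay above both sham fractions.

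Fat packaging genes rose as well. Of 20 genes for chylomicron assembly and triglyceride synthesis, 17 rose and 0 fell (median 0.79), beside a sham difference between crypts and IEC of -1.00. Dgat1, which completes triglyceride synthesis, was the 1 member above both sham fractions, with 454 and 534 CPM in hepatectomy crypts, 201 and 197 CPM in sham crypts and 296 and 295 CPM in sham IEC (1.31 ± 0.064, adjusted p = 2e-08). Apoa4, a chylomicron apolipoprotein, stood at 839 and 869 CPM in hepatectomy crypts against 375 and 358 CPM in sham crypts, far under the 6561 and 6345 CPM of sham IEC. In IEC 19 of the 20 genes rose and 1 fell (median 0.87). The effect in crypts was below that in IEC for 10 of them and above it for 2. Fabp1, a fatty acid binding protein outside this list, went the other way from most of it. It stood at 1577 and 1606 CPM against 305 and 285 CPM in sham crypts, a larger change than in IEC by 1.03 ± 0.061 (adjusted p = 5.6e-07).

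S100g, the calcium carrier calbindin-D9k of duodenal enterocytes, stood at 80.7 and 73.4 CPM in hepatectomy crypts, against 15.8 and 16.7 CPM in sham crypts and 60.6 and 59.7 CPM in sham IEC (2.24 ± 0.074, adjusted p = 8.4e-10). Slc2a5, the fructose transporter, stood at 114 and 117 CPM against 30 and 25.9 CPM in sham crypts (2.05 ± 0.072, adjusted p = 1.3e-09), and 10 of 12 genes of gluconeogenesis and fructose metabolism rose and 1 fell. Of 16 iron handling genes, 12 rose and 0 fell (median 0.42), among them Slc40a1, the iron exporter ferroportin, at 37.5 and 38.8 CPM against 19.2 and 19.4 CPM in sham crypts (0.98 ± 0.06, adjusted p = 1.5e-07). Sham IEC had more Slc2a5, at 270 and 270 CPM, and about as much Slc40a1, at 36.2 and 37.7 CPM, whereas S100g in hepatectomy crypts was above all sham libraries.

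Amino acid and peptide transporters rose in 14 of 21 cases and fell in 3 (median 0.41), with Slc36a1, a proton-coupled amino acid carrier, at 24.4 and 21.1 CPM against 7.85 and 7.76 CPM in sham crypts (1.54 ± 0.094, adjusted p = 1.5e-07). Of 21 brush border genes, 17 rose and 1 fell; Baiap2l2, which shapes the membrane of microvilli, stood at 93.5 and 124 CPM against 57.5 and 53.5 CPM in sham crypts and was not called in IEC, at 40.6 and 42 CPM after hepatectomy and 41.8 and 40.9 CPM after sham (difference of effects 0.98 ± 0.15, adjusted p = 0.00084).

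Of 18 genes that mark positions along the gut, 11 rose and 4 fell. Pdx1, a transcription factor of the duodenum, stood at 13 and 13.7 CPM in hepatectomy crypts, against 5.79 and 6.46 CPM in sham crypts (1.12 ± 0.11, adjusted p = 9.1e-06). Onecut2, another proximal factor, stood at 54.5 and 48.3 CPM against 24.8 and 26.8 CPM (0.99 ± 0.072, adjusted p = 7.3e-07). A pair of bile acid genes of the ileum fell. Slc10a2, the bile acid importer, stood at 3.26 and 3.61 CPM against 10.2 and 10.9 CPM (-1.62 ± 0.15, adjusted p = 5e-06). Fabp6, its cytosolic carrier, stood at 125 and 120 CPM against 206 and 236 CPM (-0.85 ± 0.075, adjusted p = 3.8e-06). Among 11 bile acid and FXR genes these were the 2 falls, 7 rose, among them Slc51a and Slc51b, which form the bile acid exporter of the ileum, and 2 were not called. Pdx1, Onecut2, Slc10a2 and Fabp6 lay outside both sham fractions. The labels do not say which stretch of the small intestine each library holds, so a difference in the stretch sampled cannot be told apart from a change in expression.

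Of 25 nucleotide synthesis genes, 20 fell and 1 rose (median -0.37). Rrm1, the large subunit of ribonucleotide reductase, stood at 65.1 and 64.5 CPM in hepatectomy crypts, against 115 and 113 CPM in sham crypts (-0.82 ± 0.05, adjusted p = 1.5e-07). Cad, which starts pyrimidine synthesis, stood at 23.9 and 23.9 CPM against 40.3 and 40.8 CPM (-0.76 ± 0.067, adjusted p = 3.6e-06). Rrm1 was below all sham libraries, and Cad was below sham crypts but near sham IEC, with 26 and 27.9 CPM. In sham libraries this list was higher in crypts than in IEC by a median of 0.42. After hepatectomy the list also fell in IEC, with 21 falls and 1 rise (median -0.56).

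Aminoacyl-tRNA synthetases, which charge tRNAs with amino acids, fell in 13 of 20 cases with 0 rises (median -0.22), and ribosome biogenesis genes fell in 12 of 25 with 0 rises (median -0.21). Wars, the tryptophan enzyme, stood at 95.7 and 95.6 CPM in hepatectomy crypts, against 144 and 141 CPM in sham crypts (-0.57 ± 0.058, adjusted p = 1.3e-05). Npm1, the nucleolar chaperone nucleophosmin, stood at 159 and 148 CPM against 181 and 199 CPM (-0.31 ± 0.064, adjusted p = 0.0026). Homologous recombination and Fanconi genes, which repair broken and crosslinked DNA, fell in 11 of 22 with 0 rises (median -0.29). Across these 3 lists 1 member, Rrp12, lay below both sham fractions. All 3 lists also fell in IEC, with larger medians and 0 rises. There 18 of the 20 synthetases fell (median -0.40), 23 of the 25 ribosome biogenesis genes (median -0.46) and 15 of the 22 repair genes (median -0.62). Odc1, the rate-limiting enzyme of polyamine synthesis, moved against them, with 59.2 and 68.8 CPM in hepatectomy crypts against 37.6 and 38.8 CPM in sham crypts (0.75 ± 0.081, adjusted p = 2.2e-05), and its change in crypts exceeded that in IEC by 0.63 ± 0.12 (adjusted p = 0.0029).

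Sterol and fatty acid synthesis fell too, and partly past both sham fractions. Of 24 genes of cholesterol synthesis and uptake, 21 fell and 0 rose (median -0.49), and 8 lay below both sham fractions. Dhcr7, the last enzyme of one branch of cholesterol synthesis, stood at 37.5 and 39.3 CPM in hepatectomy crypts, against 86.1 and 84.9 CPM in sham crypts (-1.15 ± 0.053, adjusted p = 1.2e-08), and at 69.8 and 67.7 CPM in hepatectomy IEC against 61.7 and 61 CPM in sham IEC. Dhcr7 fell in crypts and rose slightly in IEC (difference of effects -1.32 ± 0.075, adjusted p = 4.3e-07). It differed in this from its list, of which 16 genes fell and 3 rose in IEC (median -0.50). Over the list, the difference of effects was positive for 4 genes and negative for 4.

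Of 17 fatty acid synthesis genes, 9 fell and 2 rose. Scd2, a desaturase that makes monounsaturated fatty acids, stood at 63.2 and 60.1 CPM in hepatectomy crypts, against 222 and 215 CPM in sham crypts and 136 and 132 CPM in sham IEC (-1.82 ± 0.051, adjusted p = 2.5e-10). Aacs, which feeds acetoacetate into lipid synthesis, stood at 56.6 and 58.5 CPM against 117 and 106 CPM in sham crypts (-0.95 ± 0.063, adjusted p = 3e-07). Both genes were below all sham libraries. Mlxipl, the carbohydrate-sensing transcription factor ChREBP, rose with 136 and 134 CPM against 104 and 101 CPM (0.40 ± 0.046, adjusted p = 3.8e-05), and Acacb, the mitochondrial acetyl-CoA carboxylase, rose at a low level with 9.02 and 7.5 CPM against 4.29 and 3.27 CPM (1.13 ± 0.15, adjusted p = 0.00012).

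Of 15 heat shock chaperone genes, 9 fell and 4 rose (median -0.36). Hsph1, a co-chaperone of HSP70, stood at 25.4 and 26.3 CPM in hepatectomy crypts, against 55 and 57.1 CPM in sham crypts (-1.11 ± 0.064, adjusted p = 8.4e-08). Hsp90aa1, the stress-inducible HSP90, stood at 221 and 198 CPM against 426 and 435 CPM (-1.04 ± 0.053, adjusted p = 3.2e-08). Hspd1, the mitochondrial chaperonin HSP60, stood at 283 and 273 CPM against 418 and 434 CPM (-0.62 ± 0.046, adjusted p = 8.9e-07). Hsph1 and Hsp90aa1 were below all sham libraries, and Hspa8, the constitutive HSP70, moved the other way with 768 and 757 CPM against 677 and 647 CPM (0.20 ± 0.041, adjusted p = 0.0022).

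Heat shock factor is known to bind inverted repeats of a short GAA unit. The motif searched, read on both strands, was GAA, any pair of bases, TTC, any pair of bases, GAA; it was present in 0.603% of 32851 RefSeq promoters of 300 bases (250 before the start, 50 after it), and in 3 of the 9 called members with a promoter entry (Hsph1, Hspd1 and Hspe1). The first share counts promoters, whereas a member counted when any of its promoters matched, so the shares have unlike units. Hsph1 and Hspd1 have 2 promoters listed each, and the one with the most matches is shown. Hspd1 and Hspe1 lie head to head, so their promoter windows can share bases. The promoters of Hsph1 (GRCm38.p6, chr5:149636266-149636565, minus strand) and Hspd1 (chr1:55087883-55088182, minus strand) are shown 5′ to 3′ because both genes fell and carry the motif, in capitals, where the Hspd1 matches overlap.
Hsph1: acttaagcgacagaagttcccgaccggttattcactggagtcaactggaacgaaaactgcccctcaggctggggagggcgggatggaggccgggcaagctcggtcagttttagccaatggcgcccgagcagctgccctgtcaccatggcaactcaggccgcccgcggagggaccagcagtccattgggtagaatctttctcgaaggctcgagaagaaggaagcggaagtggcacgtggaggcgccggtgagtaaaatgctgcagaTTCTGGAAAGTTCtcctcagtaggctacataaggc
Hspd1: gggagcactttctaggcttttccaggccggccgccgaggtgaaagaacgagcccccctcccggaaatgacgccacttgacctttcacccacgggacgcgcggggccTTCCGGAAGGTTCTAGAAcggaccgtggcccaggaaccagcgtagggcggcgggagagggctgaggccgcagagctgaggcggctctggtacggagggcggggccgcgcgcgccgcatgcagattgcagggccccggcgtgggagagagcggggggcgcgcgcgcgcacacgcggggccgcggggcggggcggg

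Folding factors of the endoplasmic reticulum fell with them, in 14 of 21 cases with 2 rises (median -0.37), of which 5 lay below both sham fractions. Pdia6, a disulfide isomerase, stood at 174 and 180 CPM in hepatectomy crypts, against 310 and 294 CPM in sham crypts (-0.77 ± 0.052, adjusted p = 3.4e-07). Sdf2l1, a partner of the chaperone BiP, stood at 68.5 and 69.3 CPM against 122 and 117 CPM (-0.79 ± 0.051, adjusted p = 2.3e-07). Edem1, which sends misfolded glycoproteins to degradation, rose, with 74.9 and 88 CPM against 43.9 and 37 CPM (1.01 ± 0.1, adjusted p = 1.2e-05). Glycosylation genes fell in 10 of 22 cases and rose in 4; Galnt6, which starts O-glycans on mucins, stood at 139 and 144 CPM against 203 and 193 CPM (-0.49 ± 0.051, adjusted p = 1.7e-05). These secretory genes are highly used by goblet and Paneth cells. Goblet cell markers summed to 3014 and 2940 CPM in hepatectomy crypts, against 6686 and 6652 CPM in sham crypts. Paneth cell markers summed to 1126 and 1129 CPM against 1769 and 1943 CPM. In IEC, 14 of the 21 folding genes also fell and 4 rose (median -0.27). There the goblet sums were 9605 and 9869 CPM after hepatectomy, against 8166 and 7864 CPM after sham. The Paneth sums in IEC were 5856 and 5861 CPM against 6086 and 5749 CPM. Counted by gene, 11 of the 16 Paneth cell markers fell in IEC and 2 rose (median -0.51). Of the 16 goblet cell markers, 4 fell and 4 rose there (median -0.11). The part of goblet and Paneth cells in these falls was not tested.

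Of 17 metallothionein and zinc transporter genes, 9 rose and 4 fell (median 0.35), with 4 above and 3 below both sham fractions. Mt2, a metallothionein that binds zinc and copper, stood at 66.9 and 66.5 CPM in hepatectomy crypts, against 8.82 and 9.65 CPM in sham crypts and 7.09 and 8.9 CPM in sham IEC (2.85 ± 0.094, adjusted p = 8.4e-10). Mt1, its neighbour, stood at 361 and 342 CPM against 130 and 126 CPM in sham crypts (1.46 ± 0.062, adjusted p = 6.5e-09). Slc30a1, the zinc exporter of the plasma membrane, stood at 9.69 and 7.69 CPM against 4.41 and 4.22 CPM (1.01 ± 0.14, adjusted p = 0.00018).

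These 3 genes were above all sham libraries, and their change was larger in crypts than in IEC, by 0.97 ± 0.14 for Mt2 (adjusted p = 0.00061), 0.56 ± 0.087 for Mt1 (adjusted p = 0.00087) and 0.98 ± 0.22 for Slc30a1 (adjusted p = 0.0078). Slc39a4, the zinc importer of the apical membrane, fell to 130 and 142 CPM in hepatectomy crypts, against 245 and 232 CPM in sham crypts (-0.81 ± 0.054, adjusted p = 3.4e-07), and rose to 363 and 343 CPM in hepatectomy IEC, against 257 and 257 CPM in sham IEC. The effects differed by -1.26 ± 0.076 (adjusted p = 5.9e-07). Mtf1, the zinc-sensing factor that drives metallothionein genes, stood at 23 and 24.8 CPM against 19.2 and 18.2 CPM in sham crypts (0.36 ± 0.089, adjusted p = 0.0079), a call that was lost when either second crypt library was left out (adjusted p = 0.062 without the hepatectomy library and 0.069 without the sham library).

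MTF1 is known to bind metal response elements with the core TGCACNC or TGCGCNC. Read on both strands, either core was present in 25.7% of the 32851 promoters, with 2 or more matches in 7.11% and 4 or more in 0.517%. Counted over any promoter of a gene, a core was present in 9 of 11 called members of the list with an entry. Mt3 and Slc39a8 were among these and fell, while the rest of them rose. The promoters of Mt1 (GRCm38.p6, chr8:94178839-94179138, plus strand, 3 matches), Mt2 (chr8:94172368-94172667, plus strand, 4 matches) and Slc30a1 (chr1:191906531-191906830, plus strand, 2 matches) are shown 5′ to 3′ because these genes rose together, with the cores in capitals. A match is a description of the letters and not of binding.
Mt1: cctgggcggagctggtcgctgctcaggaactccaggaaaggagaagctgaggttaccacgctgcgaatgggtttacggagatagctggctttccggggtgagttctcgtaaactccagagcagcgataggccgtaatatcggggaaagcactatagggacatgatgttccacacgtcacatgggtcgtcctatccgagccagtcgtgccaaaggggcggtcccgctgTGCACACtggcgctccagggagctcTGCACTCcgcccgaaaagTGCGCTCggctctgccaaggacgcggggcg
Mt2: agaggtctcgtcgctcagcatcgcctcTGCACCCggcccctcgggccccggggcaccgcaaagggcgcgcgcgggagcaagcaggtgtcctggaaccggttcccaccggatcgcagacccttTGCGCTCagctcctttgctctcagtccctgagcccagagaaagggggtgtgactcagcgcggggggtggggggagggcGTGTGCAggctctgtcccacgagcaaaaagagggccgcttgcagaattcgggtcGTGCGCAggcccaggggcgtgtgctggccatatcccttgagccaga
Slc30a1: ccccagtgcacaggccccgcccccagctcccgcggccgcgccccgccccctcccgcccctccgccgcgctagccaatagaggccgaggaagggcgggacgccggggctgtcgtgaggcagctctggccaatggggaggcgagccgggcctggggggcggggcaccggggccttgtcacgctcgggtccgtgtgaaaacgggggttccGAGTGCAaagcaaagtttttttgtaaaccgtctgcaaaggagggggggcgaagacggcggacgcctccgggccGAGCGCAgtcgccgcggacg

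**Figure D3:**
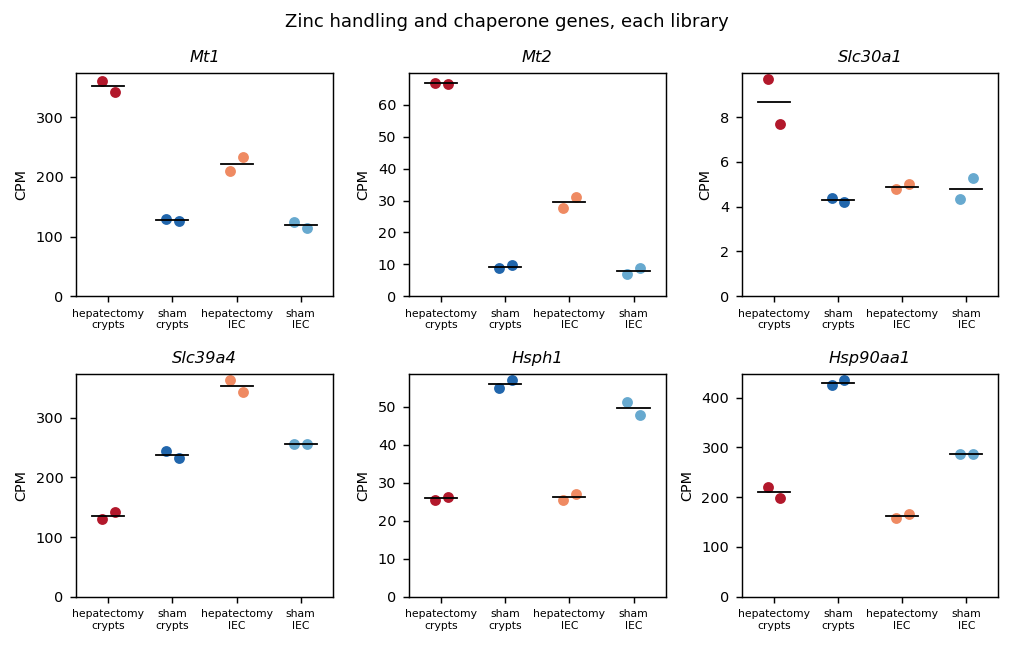
CPM of 4 zinc handling genes and 2 chaperone genes in each library (points) with the group mean (line). Mt1, Mt2 and Slc30a1 are above both sham groups in hepatectomy crypts, Slc39a4 is below them in hepatectomy crypts and above them in hepatectomy IEC, and Hsph1 and Hsp90aa1 are lower after hepatectomy in both fractions.

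Of 18 Notch pathway genes, 5 fell, 3 rose and 10 were not called, among them Hes1 and Hes5. Mfng, Dtx1 and Lfng fell, and Numb and Rfng rose, beside the genes given next. Dll1 and Dll4, ligands by which secretory cells hold back their neighbours, fell: Dll1 stood at 20.8 and 23.5 CPM in hepatectomy crypts, against 32.7 and 31.4 CPM in sham crypts (-0.53 ± 0.084, adjusted p = 0.00042), and Dll4 at 7.23 and 7.13 CPM against 13.5 and 11.8 CPM (-0.81 ± 0.11, adjusted p = 0.0001). Nrarp, a target and feedback inhibitor of Notch, rose to 19.8 and 30 CPM, against 13.9 and 14.1 CPM in sham crypts (0.83 ± 0.15, adjusted p = 0.00094). For these 3 genes the effect in crypts differed from that in IEC, by -0.91 ± 0.12 for Dll1 (adjusted p = 0.0003), by -1.06 ± 0.15 for Dll4 (adjusted p = 0.00054) and by 1.42 ± 0.23 for Nrarp (adjusted p = 0.0013).

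Of 19 insulin and IGF signalling genes, 8 rose and 0 fell. Foxo1, the transcription factor restrained by insulin, stood at 19.9 and 26.8 CPM in hepatectomy crypts, against 14.1 and 13.4 CPM in sham crypts (0.77 ± 0.12, adjusted p = 0.00031). Irs2, an insulin receptor substrate, stood at 19.4 and 20.2 CPM against 13.3 and 13.2 CPM (0.58 ± 0.09, adjusted p = 0.00034). Insr, the insulin receptor, stood at 18 and 16.2 CPM against 11.5 and 12.6 CPM (0.50 ± 0.091, adjusted p = 0.0011). Some of the rises were at low level, such as Igfbp6, a binding protein of IGFs, at 2.41 and 2.59 CPM against 0.47 and 0.242 CPM. Foxo1 and Irs2 lay above both sham fractions.

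Glucocorticoid-induced genes were split, with 7 rises and 5 falls among 18. Fkbp5, a chaperone of the receptor and a standard readout of it, stood at 10.6 and 11 CPM in hepatectomy crypts, against 6.41 and 6.46 CPM in sham crypts (0.75 ± 0.096, adjusted p = 8.2e-05). Nr3c1, the receptor, stood at 83.6 and 94.6 CPM against 63.3 and 62.4 CPM (0.50 ± 0.066, adjusted p = 9.6e-05). Tsc22d3, the effector GILZ, fell to 27.9 and 29 CPM against 37.8 and 37.8 CPM (-0.41 ± 0.059, adjusted p = 0.0002), and Per1 to 12.9 and 10.4 CPM against 17.8 and 17.4 CPM (-0.60 ± 0.11, adjusted p = 0.00084). In IEC both Tsc22d3 and Per1 rose (0.95, adjusted p = 7.6e-08, and 0.60, adjusted p = 0.0013).

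Among 29 transcription factors of the gut, 14 rose and 3 fell (median 0.24), with the effect in crypts above that in IEC for 8 and below it for 7. Klf3, a repressor of the Krüppel family, stood at 130 and 129 CPM in hepatectomy crypts, against 77.3 and 62.7 CPM in sham crypts (0.89 ± 0.09, adjusted p = 1.2e-05), and at 69.1 and 78.8 CPM in hepatectomy IEC, against 70.8 and 77.2 CPM in sham IEC (difference of effects 0.89 ± 0.13, adjusted p = 0.00057). Gata6, an endoderm factor needed for crypt cells, stood at 39.2 and 48.8 CPM against 20.8 and 24.6 CPM in sham crypts (0.96 ± 0.11, adjusted p = 4.1e-05). Klf5, a factor of dividing crypt cells, stood at 680 and 713 CPM against 564 and 463 CPM (0.44 ± 0.1, adjusted p = 0.0044; 0.05 without the second sham crypt library). The hepatectomy crypts were above all sham libraries for each of the 3.

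Of 21 apoptosis regulators, 8 rose and 1 fell (median 0.09), and 5 lay above both sham fractions. Casp6, an executioner caspase, stood at 204 and 214 CPM in hepatectomy crypts, against 127 and 125 CPM in sham crypts (0.73 ± 0.05, adjusted p = 4.3e-07). Genes of the gasdermin family, which perforate membranes in pyroptosis, split: Gsdmd stood at 134 and 130 CPM against 67.3 and 64.5 CPM (1.00 ± 0.046, adjusted p = 1.3e-08), while Gsdmc4 stood at 40.9 and 37.1 CPM against 122 and 128 CPM (-1.68 ± 0.068, adjusted p = 4.3e-09), with Gsdmc2 and Gsdmc3, near-identical copies of it whose counts are uncertain, also called as falls. Gsdmd was within the range set by sham IEC, and Gsdmc4 was below both sham fractions.

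Among 11 genes of oxidant-producing enzymes and their partner proteins, 6 fell and 2 rose. The falls were Cybb, Nox1, Noxa1, Nos2, Duoxa2 and Duox2, and the cells they came from were not tested. Nox1 stood at 7.61 and 8.46 CPM in hepatectomy crypts, against 23 and 21.1 CPM in sham crypts (-1.45 ± 0.1, adjusted p = 4.5e-07). Duox2, the main peroxide-producing oxidase of the gut surface, fell much less in crypts, to 78.9 and 72.7 CPM against 91 and 89.3 CPM (adjusted p = 0.011; 0.083 without the second hepatectomy crypt library and 0.066 without the first sham crypt library), than in IEC, to 16.6 and 19.2 CPM against 66.2 and 69.1 CPM (difference of effects 1.67 ± 0.1, adjusted p = 6.1e-07). Reg lectins and antimicrobials had 6 rises and 6 falls among 14, with Reg3b, a bactericidal lectin, at 4026 and 3933 CPM against 2428 and 2325 CPM in sham crypts (0.74 ± 0.036, adjusted p = 2e-08). The 6 rises were Slpi, Reg1, Reg3a, Reg3b, Reg3g and Lypd8, and the 6 falls included Lyz1, Ang4 and Zg16, products of Paneth and goblet cells.

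Il18, an epithelial cytokine, stood at 31.3 and 31.8 CPM in hepatectomy crypts, against 8.11 and 8.86 CPM in sham crypts (1.89 ± 0.075, adjusted p = 3.9e-09), a larger change than in IEC by 0.75 ± 0.1 (adjusted p = 0.0003), and below the 45.3 and 42 CPM of sham IEC. Of 16 complement and acute phase genes, 9 rose and 1 fell, mostly at low level. C3, the central complement protein, stood at 8.17 and 8.29 CPM in hepatectomy crypts, against 0.97 and 1.21 CPM in sham crypts (2.90 ± 0.17, adjusted p = 1.1e-07), and at 1.97 and 1.82 CPM in hepatectomy IEC, against 1.31 and 1.04 CPM in sham IEC. Its level in hepatectomy crypts was above all 6 other libraries, and the effect exceeded that in IEC by 2.20 ± 0.29 (adjusted p = 0.00029). Fibroblast genes were level in sum (55.9 and 55.2 CPM in hepatectomy crypts, against 53 and 52.4 CPM in sham crypts), with Dcn, Pdpn, Col3a1 and Col1a2 higher, Fn1 and Fbln1 lower and 3 of 9 not called; their part was not tested.

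Cldn2, a claudin that lets sodium and water through tight junctions of crypts, fell to 126 and 127 CPM in hepatectomy crypts, against 229 and 229 CPM in sham crypts (-0.86 ± 0.045, adjusted p = 4.3e-08), below both sham fractions. Junction genes as a list had 9 falls and 3 rises among 26 (median -0.04). Keratin and nuclear lamina genes fell in 7 of 15 cases and rose in 2, with Krt18 at 254 and 254 CPM against 360 and 348 CPM (-0.48 ± 0.05, adjusted p = 1.5e-05). Enteroendocrine genes were split, with 6 rises, 5 falls and 8 not called among 19 (median 0.02). Chgb, a granule protein of these cells, rose to 244 and 246 CPM, against 144 and 142 CPM in sham crypts (0.78 ± 0.046, adjusted p = 1.2e-07), while it fell in IEC (-0.32, adjusted p = 0.00016).

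Of 13 genes of the stomach lining, 6 rose and 0 fell in crypts (median 0.65), whereas in IEC 1 rose and 6 fell, and for 6 the effect in crypts exceeded that in IEC. Tff1, a trefoil peptide of gastric mucus, stood at 4.76 and 4.31 CPM in hepatectomy crypts, against 3.03 and 3.63 CPM in sham crypts (0.43 ± 0.14, adjusted p = 0.031; 0.17 with DESeq2, 0.061 with no filter, 0.052 with only the crypt groups in the fit, 0.12 without the first hepatectomy crypt library and 0.18 without the first sham crypt library), and at 1.41 and 1.5 CPM in hepatectomy IEC, against 14.6 and 13 CPM in sham IEC (difference of effects 3.67 ± 0.21, adjusted p = 4.7e-07). Tff2, its relative, stood at 2.23 and 2.28 CPM in hepatectomy crypts, against 0.823 and 1.19 CPM in sham crypts (1.15 ± 0.27, adjusted p = 0.0051; 0.064 with DESeq2). The sham IEC libraries were the high group for Tff1.

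Of 23 splicing factors, 5 rose and 3 fell (median -0.04), beside 19.2% and 18.3% of all genes tested. As a list they were thus called about as often as genes at large. All 5 rises lay above both sham fractions, where 7.08% of all genes tested lay. For 12 members the effect in crypts exceeded that in IEC, with 1 the reverse, against 9.15% and 10.1% of all genes tested. Hnrnpu, a nuclear scaffold protein, stood at 249 and 373 CPM in hepatectomy crypts, against 114 and 112 CPM in sham crypts (1.46 ± 0.13, adjusted p = 5.2e-06); the 2 hepatectomy libraries differed widely but neither came near the sham level. Rbm3, a cold-induced RNA-binding protein, stood at 174 and 163 CPM against 101 and 111 CPM in sham crypts (0.67 ± 0.056, adjusted p = 2.6e-06). Cirbp, another cold-induced protein, stood at 39.3 and 38.4 CPM against 25.3 and 25 CPM (0.63 ± 0.064, adjusted p = 1.3e-05). In IEC after hepatectomy Rbm3 fell (-0.22, adjusted p = 0.0097).

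Of 24 chromatin and DNA methylation genes, 8 rose and 4 fell. For 10 the effect in crypts exceeded that in IEC, against 9.15% of all genes tested. Eed and Suz12, subunits of the Polycomb complex that methylates histone H3, stood at 24.8 and 29.5 CPM against 19.4 and 17.9 CPM (0.55 ± 0.091, adjusted p = 0.00057) and at 28.7 and 23.9 CPM against 18.5 and 20 CPM (0.44 ± 0.09, adjusted p = 0.0023). Dnmt1, the enzyme that copies DNA methylation after replication, fell to 54.2 and 55.2 CPM, against 83.1 and 77.6 CPM in sham crypts (-0.55 ± 0.056, adjusted p = 1.2e-05). Kcnq1ot1, a long noncoding RNA of an imprinted region, stood at 35 and 31.6 CPM against 15 and 15.4 CPM in sham crypts (1.13 ± 0.077, adjusted p = 4.3e-07); it runs antisense to Kcnq1, so its counts are uncertain.

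Among the largest rises by the naming rule were Exosc6, the clock genes Dbp, Tef and Nr1d1, Nat8f5, Akp3 and Otop3. Akp3, an intestinal alkaline phosphatase, stood at 41.8 and 45 CPM in hepatectomy crypts, against 8.55 and 7.38 CPM in sham crypts (2.45 ± 0.077, adjusted p = 6.4e-10), with 185 and 177 CPM in sham IEC. Exosc6 had 6.87 and 21.3 CPM in hepatectomy crypts and 0 in the 6 other libraries, and it overlaps Aars in the annotation; its call was lost with DESeq2 (adjusted p = 0.07). Cebpb, a transcription factor of stress and metabolism, stood at 27.4 and 39.2 CPM in hepatectomy crypts, against 11.6 and 8.7 CPM in sham crypts and 2.43 and 2.95 CPM in sham IEC (1.73 ± 0.22, adjusted p = 8.4e-05). For Exosc6 the 2 hepatectomy libraries lay far apart, whereas for Akp3 they lay close together.

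Among the largest falls were Paneth cell defensins, whose copies are nearly identical and whose single counts are uncertain, and Pla2g4c, Mboat1, Coro1a, Scd2 and Slc10a2. Mboat1, an acyltransferase that remodels membrane phospholipids, stood at 6.49 and 6.76 CPM in hepatectomy crypts, against 28.5 and 28.2 CPM in sham crypts and 14.3 and 12.6 CPM in sham IEC (-2.09 ± 0.092, adjusted p = 7.8e-09). Coro1a, an actin regulator of leukocytes, stood at 2.91 and 3.31 CPM against 11.9 and 11 CPM (-1.87 ± 0.12, adjusted p = 2.2e-07), beside the fall of the lymphocyte lists. Both were below all sham libraries. Atp2a3, a calcium pump of the endoplasmic reticulum, fell to 62.8 and 67 CPM, against 138 and 120 CPM (-0.99 ± 0.064, adjusted p = 2.7e-07).

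The response of crypts was then set beside that of IEC, which shares no library with it. In IEC, 6878 genes were called (37.8%), with 3544 rises (19.5%) and 3334 falls (18.3%). Of the crypt rises, 1771 also rose in IEC, 50.7% of the crypt rises and 50% of the IEC rises, and 1761 falls were shared, 52.9% of the crypt falls and 52.8% of the IEC falls. The difference between the effects passed the test for 3496 genes (19.2%), positive for 1666 (9.15%) and negative for 1830 (10.1%). Opposite changes, each called in both fractions and with a called difference, were seen in 388 genes (2.13%), of which 200 (1.1%) rose in crypts and fell in IEC and 188 (1.03%) fell in crypts and rose in IEC.

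**Figure D4:**
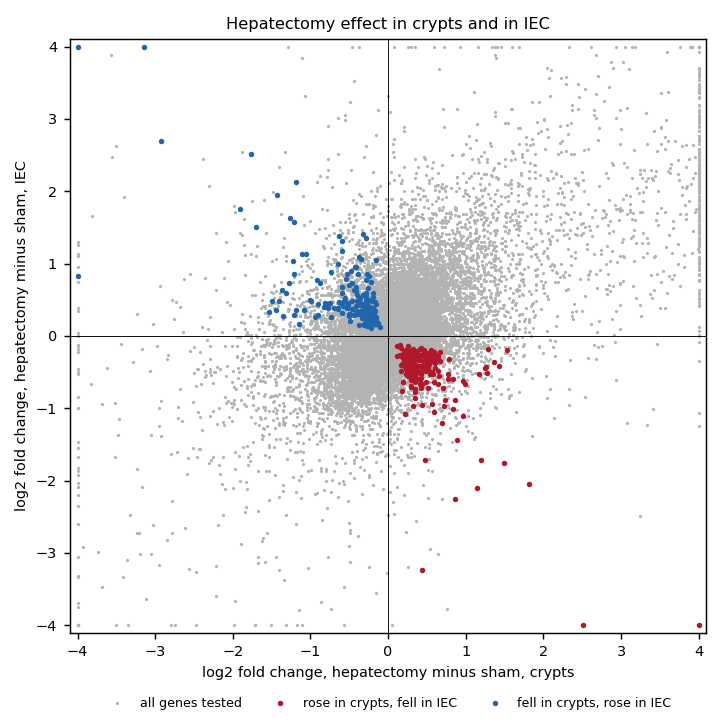
Log2 fold change of hepatectomy over sham in crypts (horizontal) and in IEC (vertical) for all 18207 genes tested (grey), with the 388 genes of opposite called changes coloured. Axes end at 4 in either direction, and 315 genes beyond that are drawn at the edge.

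Myb, a transcription factor that keeps crypt progenitors dividing, rose in crypts and fell in IEC. It stood at 55.1 and 65 CPM in hepatectomy crypts, against 40.2 and 41.2 CPM in sham crypts (0.56 ± 0.08, adjusted p = 0.00019), and at 14.1 and 15.5 CPM in hepatectomy IEC, against 27.2 and 29.3 CPM in sham IEC (-0.94, adjusted p = 7.3e-06). Usp1, a deubiquitinase of DNA crosslink repair, stood at 37.3 and 38.6 CPM against 22.7 and 23.5 CPM in crypts (0.71 ± 0.1, adjusted p = 0.00022), and at 8.97 and 11.5 CPM against 18.5 and 15 CPM in IEC (-0.72, adjusted p = 0.0006). Yrdc, which takes part in modifying tRNA, stood at 36.6 and 46 CPM against 17.2 and 17 CPM in crypts (1.27 ± 0.12, adjusted p = 7.3e-06), and at 6.31 and 7.39 CPM against 8.51 and 11 CPM in IEC (-0.51, adjusted p = 0.022). In each fraction the 2 operations did not overlap for any of the 3 genes.

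Ide, the insulin-degrading protease, went the other way. It stood at 39 and 37.7 CPM in hepatectomy crypts, against 71 and 72.9 CPM in sham crypts (-0.91 ± 0.056, adjusted p = 1.8e-07), and at 75.8 and 76.8 CPM in hepatectomy IEC, against 43 and 46.3 CPM in sham IEC (0.77, adjusted p = 5.1e-07). Zg16, a lectin of goblet cell mucus, stood at 385 and 365 CPM against 893 and 924 CPM in crypts (-1.28 ± 0.048, adjusted p = 2.2e-09), and at 2138 and 2322 CPM against 1350 and 1333 CPM in IEC (0.73, adjusted p = 1.4e-07). Errfi1, a feedback inhibitor of the EGF receptor, stood at 10.1 and 9.6 CPM against 12.9 and 11.8 CPM in crypts (-0.32 ± 0.094, adjusted p = 0.017; 0.075 with DESeq2, 0.087 without the second hepatectomy crypt library and 0.13 without the first sham crypt library), and at 43.3 and 42.5 CPM against 17.4 and 14.8 CPM in IEC (1.41, adjusted p = 1.1e-07). The levels of Ide after hepatectomy in one fraction lay near those after sham surgery in the other.

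**Figure D5:**
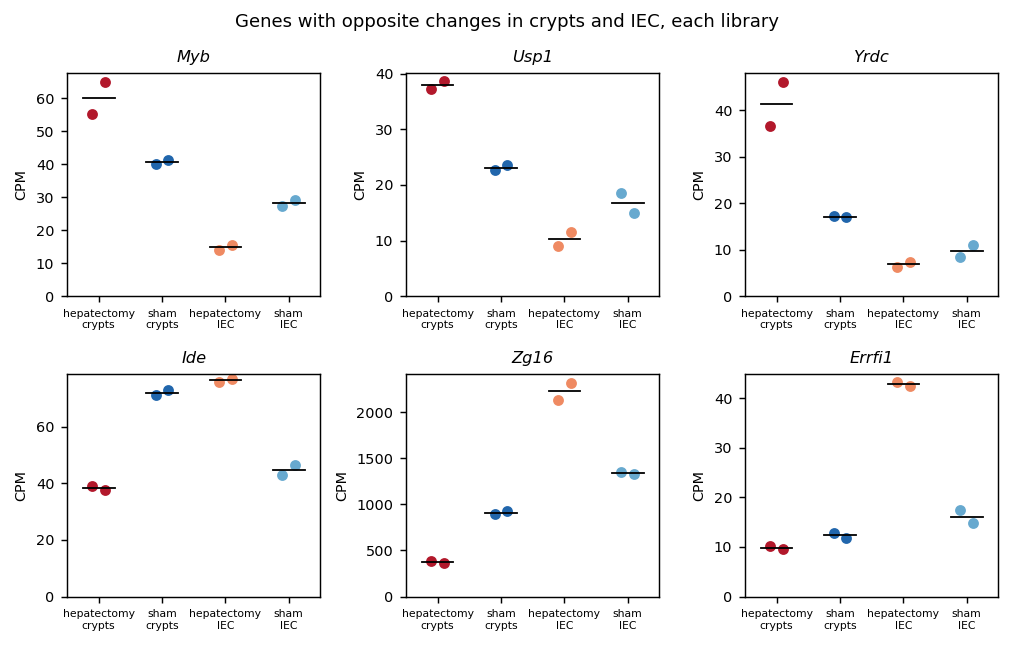
CPM of 6 genes with opposite changes in each library (points) with the group mean (line). Myb, Usp1 and Yrdc are higher after hepatectomy in crypts and lower in IEC, and Ide, Zg16 and Errfi1 are lower in crypts and higher in IEC.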

How the data were processed

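Per the labels, total RNA (1 ug, RNeasy Mini Plus) was made into standard Illumina libraries. Per the submitters' processing notes, STAR, Partek and the mm10 build were used; their versions and roles are not given in the sources used here. Deposited by the authors were estimated counts per gene for 33840 genes, 36.7% of them not whole; they were rounded, and 17 values of at least 1000000 carry 3 digits. The 8 intestinal libraries entered 1 edgeR fit with 4 group means (R 4.3.3, edgeR 4.0.16, limma 3.58.1; TMM scaling, at least 10 counts by filterByExpr, total at least 15), called at an adjusted p under 0.05; the alternatives included DESeq2 1.42.0. Counts were simulated for the crypt comparison over 18207 genes. Of 67 genes changed 1.5-fold 64.2% were called, of 67 changed 2-fold 74.6%, and of 66 changed 4-fold 80.3%. Unchanged genes made up 5.19% of the simulated calls. Far fewer genes were changed there than the 6819 called in the data, so these shares may not hold for the data. The 84 gene lists and the rule for named genes (the largest changes of any gene, among abundant genes, outside both sham fractions, with opposite effects, and in each list) were chosen with earlier results of these data known. Of 140 named genes checked against the rule, 45 lie outside it and were chosen after their values were seen. Python 3.11.15 was used for tables and motif searches. A few single-gene results are not reported here.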

Additional observations from a re-analysis of the deposited data

Results flagged for a closer look

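The effect of hepatectomy differed between crypts and IEC by the interaction test for 3496 genes, and 388 of the genes tested changed in opposite directions, each called in both fractions. The 12 genes with the largest such differences under the naming rule are given as crypt effect minus IEC effect on the log2 scale. Afp, the fetal serum protein alpha-fetoprotein, differed by 1.89, Yrdc by 1.79, Myb by 1.5, Usp1 by 1.43, Nrarp by 1.42 and Zc3h12a, an RNase that degrades inflammatory mRNAs, by 1.38. On the negative side, Defa35, a Paneth cell defensin with near-identical copies, differed by -7.41, Zg16 by -2.01, Ddah1, which degrades inhibitors of nitric oxide synthesis, by -1.87, Hgfac, the activator of hepatocyte growth factor, by -1.80, Errfi1 by -1.74 and Ide by -1.68.

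Defa35 stood at 0.0294 and 0.186 CPM in hepatectomy crypts, against 10.2 and 12.7 CPM in sham crypts, and at 3.09 and 3.75 CPM in hepatectomy IEC, against 1.87 and 1.96 CPM in sham IEC. Afp stood at 12.6 and 13.3 CPM in hepatectomy crypts, against 8.2 and 7.87 CPM in sham crypts, and at 8.47 and 8.86 CPM in hepatectomy IEC, against 20.5 and 19.3 CPM in sham IEC. Hgfac stood at 9.55 and 10.1 CPM in hepatectomy crypts, against 28.4 and 25.2 CPM in sham crypts, and at 27 and 28.7 CPM in hepatectomy IEC, against 20 and 23.3 CPM in sham IEC. With 2 libraries a group, no single library could be tested for standing apart.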

How the results depend on the processing

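With DESeq2, 2051 genes fell in crypts, 1134 differences of effect were negative, 1419 genes lay outside both sham fractions (759 above, 660 below), and 200 had opposite effects; the cause was not tested. Leaving out each of the 8 libraries in turn gave 4996 to 7040 called genes in crypts (2701 to 3686 rises, 2216 to 3368 falls), 5325 to 7174 in IEC (2659 to 3564 rises, 2639 to 3615 falls) and 2351 to 3099 differences of effect (1167 to 1612 positive, 999 to 1496 negative). It gave 1788 to 2470 genes outside both sham fractions (879 to 1249 above, 852 to 1221 below) and 256 to 359 with opposite effects. Without the first sham crypt library the falls numbered 2216 and the negative differences 999, and without the first hepatectomy IEC library the opposite effects numbered 256. The other alternatives for these counts stayed within 1.5 times the reported ones. Over all gene lists and alternatives, 2315 counts of members that rose or fell stayed within 1.5 times the reported count. The remaining 205 moved further, or to or from no member. The replicate numbers did not pair the samples (correlations of same-numbered deviations -0.0161 to 0.028); with the replicate number as a block, 6582 genes were called in crypts. None of the 140 named genes checked changed sign in crypts under any alternative run. Rises made up 51.2% of crypt calls, 56.5% with DESeq2 and 55.2% without the rRNA locus, Gm10800, Lars2 and mitochondrial genes, a setting chosen after seeing the data.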
